A study of Rattus norvegicus with 16 samples.

Results

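Genes of the choroid plexus, 6 in all, were followed across 16 hippocampal RNA libraries from rats: Ttr (ENSRNOG00000016275), Kl (ENSRNOG00000001092), Igf2 (ENSRNOG00000020369), Igfbp2 (ENSRNOG00000016957), Folr1 (ENSRNOG00000019902) and Aqp1 (ENSRNOG00000011648). They were chosen by name, as genes made in the choroid plexus, and all 6 were among the 32754 gene IDs of the count table. Each also passed the filter on low counts that left 15035 genes for testing. The table lists IDs only, so the symbols are those supplied with the gene list, and the reference used here, which carries no Ensembl IDs, could not check them. All rats were male wild-type Fischer-344, an inbred strain much used in work on aging. They were 6 months old (young) or 20 months old (old). Within each age they were exercise-trained or kept sedentary for 10 weeks, and behavioural tests preceded the dissection. Each of the 4 groups held 4 rats with 1 library each, made from poly(A) RNA of bulk hippocampus, a brain region needed for memory.

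The choroid plexus is a vascular fold covered by a secretory epithelium that hangs in the brain ventricles and makes cerebrospinal fluid. One such fold lies against the hippocampus in the lateral ventricle and its temporal horn, so a dissected hippocampus can carry some of it. Ttr encodes transthyretin, a carrier of thyroid hormone and of retinol-binding protein that this epithelium secretes in large amounts, and in healthy brain it is the best-known marker of the tissue. Kl encodes klotho, a co-receptor for the hormone FGF23 whose outer part is shed into blood and cerebrospinal fluid. Igf2 encodes the imprinted growth factor IGF-II, made in the adult brain mostly by choroid plexus and the meninges. Igfbp2 encodes a secreted protein that binds IGF-II, and astrocytes can make it too. Folr1 encodes folate receptor alpha, which carries folate across the epithelium. Aqp1 encodes the water channel of the epithelium's apical membrane.

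Upstream sequence was looked at because the 6 genes moved together. The RefSeq promoter table of assembly GRCr8 had an entry for 5 of the 6 members, with 2 entries for Igf2 and 6 entries in all. Folr1 had none. The 250 bases before the annotated start are shown for Kl, Aqp1 and Igfbp2, whose windows each held a searched motif and lie outside the annotated gene. They are written 5′ to 3′ on the gene's strand, and capitals mark every match to a searched motif. The windows are chr12:5325753-5326002 for Kl, chr4:85812534-85812783 for Aqp1 and chr9:81864561-81864810 for Igfbp2, all on the forward strand.
Kl: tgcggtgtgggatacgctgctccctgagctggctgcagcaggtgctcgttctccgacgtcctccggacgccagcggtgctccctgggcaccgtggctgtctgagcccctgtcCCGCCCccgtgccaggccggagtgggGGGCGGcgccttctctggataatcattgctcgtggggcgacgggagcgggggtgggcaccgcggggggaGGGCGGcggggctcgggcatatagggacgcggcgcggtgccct
Aqp1: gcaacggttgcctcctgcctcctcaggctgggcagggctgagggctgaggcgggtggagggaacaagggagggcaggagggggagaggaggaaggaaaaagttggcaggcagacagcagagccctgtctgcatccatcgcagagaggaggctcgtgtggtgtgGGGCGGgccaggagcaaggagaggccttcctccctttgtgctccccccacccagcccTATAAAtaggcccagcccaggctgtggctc
Igfbp2: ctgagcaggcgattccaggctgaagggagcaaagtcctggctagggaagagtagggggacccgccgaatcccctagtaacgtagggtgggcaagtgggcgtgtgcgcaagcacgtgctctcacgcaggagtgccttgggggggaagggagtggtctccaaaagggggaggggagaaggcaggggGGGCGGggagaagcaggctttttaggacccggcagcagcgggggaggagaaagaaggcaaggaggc

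The following motifs were searched on both strands of these windows: the OTX-type TAATCC, the forkhead TGTTTAC, the TATA box TATAAA, the CCAAT box CCAAT and the GC box GGGCGG. None of these motifs contains another. Only exact matches to these letters were counted, so other forms of a site would be missed. Kl held 3 GC boxes, and Aqp1, Igfbp2 and 1 of the Igf2 entries held 1 each. Aqp1 alone of the 5 genes held TATAAA, beginning 30 bases before its start. The Ttr window held none of the motifs, and no member window held the OTX-type, forkhead or CCAAT motif. Among all 33469 promoter entries of the same length, GGGCGG was in 30.5%, CCAAT in 34.0%, TATAAA in 12.9%, TAATCC in 6.34% and TGTTTAC in 3.21%. The Ttr window was 40.4% G and C, against 73.2% for Kl, 65.2% for Aqp1, 64.0% for Igfbp2 and a median of 51.2% over all entries. Within these windows, then, 4 of the 5 genes held a GC box, Ttr held no searched motif, and Ttr and Kl lay on opposite sides of the median base composition.

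Libraries held 8630396 to 14576687 counts each. Levels are given as CPM, each gene's share of its library's counts after TMM scaling for composition, which is not corrected for gene length, so levels of different genes are not compared with each other. Ttr took 0.537% of all counts in young sedentary replicate 4 (59405 counts, 95% exact binomial interval 0.533% to 0.542%), its largest share. Its smallest share, in old trained replicate 4, was 0.00167% (219 counts, interval 0.00146% to 0.00191%). Intervals cover counting error only. Before any comparison, 3 trained libraries stood apart: young trained replicate 1 and old trained replicates 1 and 4 had 199 to 273 Ttr counts, whereas the other 13 libraries had 7860 to 76156. The main fold changes, their tests and the ranks are also given without them. Most alternative fits, and the overlap of groups, are given with them only. These 3 libraries had totals of 11662582, 8630396 and 13117914 counts, in the order named. The second of these is the lowest of the 16.

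Ttr, the thyroid hormone carrier, stood at 2479, 5203, 4850 and 5348 CPM in young sedentary rats. In young trained rats it stood at 23.96, 3154, 1404 and 2007 CPM. The young groups overlapped, because young trained replicate 2 lay above young sedentary replicate 1. In old sedentary rats Ttr stood at 3685, 3924, 4649 and 1868 CPM. In old trained rats it stood at 23.8, 635, 1340 and 16.9 CPM. Every old trained library lay below every old sedentary one, and the highest old trained library was 79.5 times the lowest.

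Kl, the klotho gene, stood at 35.7, 51.0, 68.3 and 65.4 CPM in young sedentary rats. It stood at 0.351, 34.1, 15.6 and 24.7 CPM in young trained rats. These groups did not overlap, but only 34.1 and 35.7 CPM separated them. In old sedentary rats Kl stood at 28.7, 68.7, 45.1 and 24.6 CPM, and in old trained rats at 1.32, 7.11, 15.2 and 0.462 CPM. The old groups did not overlap. The 3 trained libraries of lowest Ttr were also the 3 lowest for Kl, with 4 to 11 counts each.

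Igf2, the growth factor, stood at 93.0, 129.9, 139.5 and 156.7 CPM in young sedentary rats. It stood at 14.1, 75.1, 36.5 and 61.3 CPM in young trained rats, all below the sedentary range. In old sedentary rats it stood at 62.7, 131.6, 94.8 and 53.9 CPM. In old trained rats it stood at 13.9, 19.3, 29.1 and 5.78 CPM, again all below. The gene for its binding protein, Igfbp2, stood at 84.6, 136.8, 126.1 and 155.1 CPM in young sedentary rats. In young trained rats it stood at 24.04, 79.8, 40.9 and 72.9 CPM. Young trained replicate 2 was the closest to the sedentary libraries for both genes of this pair. In old sedentary rats Igfbp2 stood at 82.0, 120.9, 113.3 and 76.0 CPM, and in old trained rats at 21.8, 26.2, 36.2 and 13.3 CPM. For ligand and binding protein alike the groups of each age did not overlap, and old trained replicate 4 was the lowest of all 16 libraries.

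Folr1, the folate receptor gene, stood at 21.3, 37.2, 32.8 and 36.7 CPM in young sedentary rats. In young trained rats it stood at 0.878, 18.8, 9.29 and 16.6 CPM. The ranges did not meet. In old sedentary rats it stood at 22.2, 32.5, 27.2 and 16.4 CPM, against 0.837, 5.74, 7.55 and 0.770 CPM in old trained rats. Aqp1, the water channel gene, stood at 21.1, 33.8, 35.5 and 36.5 CPM in young sedentary and 1.76, 22.6, 10.6 and 14.3 CPM in young trained rats. Here young trained replicate 2 lay above young sedentary replicate 1. In old rats Aqp1 stood at 21.8, 30.0, 23.2 and 13.8 CPM in sedentary and 3.35, 3.48, 7.77 and 0.924 CPM in trained libraries. No old trained library reached the sedentary range of Folr1 or Aqp1.

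**Figure D1:**
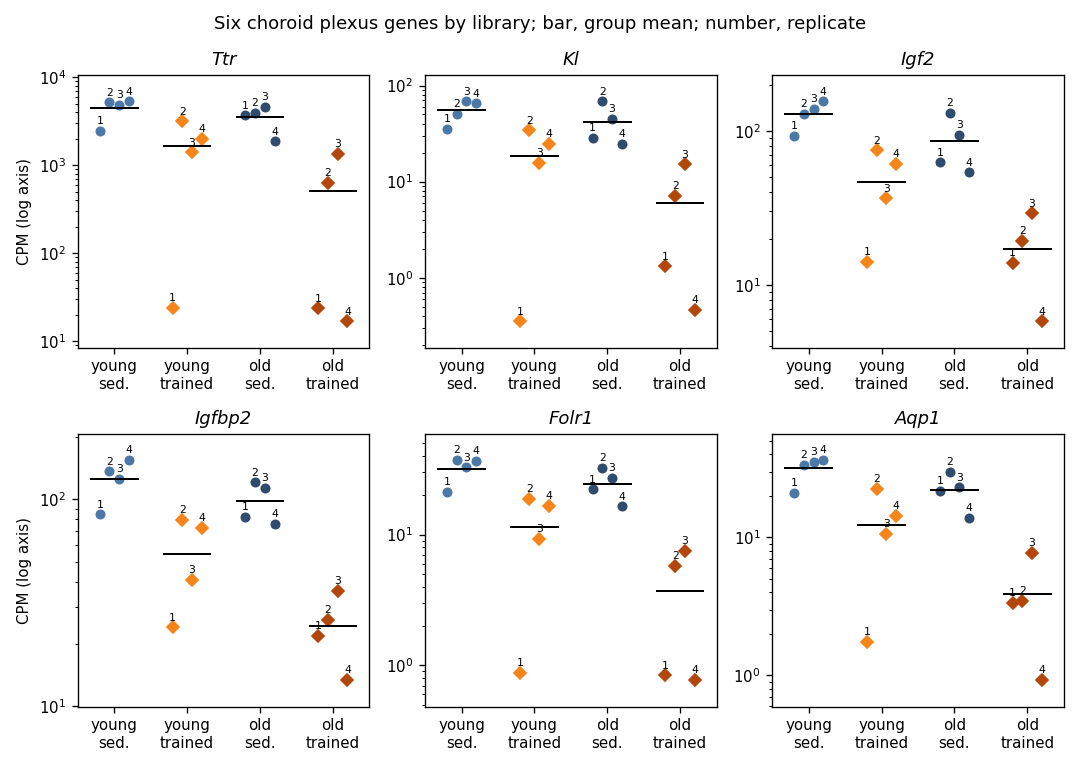
CPM of each of the 6 genes in every library (log axis), by group, with the group mean as a bar and the replicate number beside each point. Young trained replicate 1 and old trained replicates 1 and 4 are the 3 lowest points for each of the 6 genes, with old trained replicate 2 close above them for Aqp1 (3.48 CPM) and Igfbp2 (26.2 CPM).

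Whether training changed these genes was addressed first at each age. In old rats 5 of the 6 members fell: Igfbp2, Igf2, Aqp1, Folr1 and Kl were called lower in trained rats. Across all 15035 genes 12.6% were called lower in that comparison. In the sedentary group Igfbp2, the binding protein gene, had a mean of 98.1 ± 22.3 CPM (SD, n = 4). With training the mean was 24.4 ± 9.51 CPM (SD, n = 4), a 4.01-fold decrease. Its log2 fold change was -2.004 (SE 0.36, edgeR quasi-likelihood adjusted p = 0.00212). For Igf2 the means were 85.7 ± 35.3 CPM (SD, n = 4) without and 17.0 ± 9.80 CPM (SD, n = 4) with training, a change of -2.32 (SE 0.50, edgeR adjusted p = 0.00489). The largest fold among the called members was that of Kl, at 6.61-fold lower (log2 fold change -2.73, SE 0.82, edgeR adjusted p = 0.0258). Folr1 was 6.28-fold lower (edgeR adjusted p = 0.0106) and Aqp1 5.61-fold lower (edgeR adjusted p = 0.00773). For Ttr the means were 3532 ± 1182 CPM (SD, n = 4) and 504 ± 628 CPM (SD, n = 4), but its change of -2.81 (SE 1.21) did not pass (edgeR adjusted p = 0.111). The median log2 fold change of the members was -2.57, and that of all genes tested was -0.01.

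All 6 members had every old trained library below every old sedentary library, an arrangement that 11.3% of all genes tested showed. Kl was no longer called without old trained replicates 1, 2 or 4 or old sedentary replicate 2, each left out alone, which left 4 members called, while 8.98% to 15.3% of all genes were called lower over the 16 fits that each left out 1 library. Without the 3 libraries of lowest Ttr, a setting chosen after the values were seen, all 6 members were called lower, where 4.89% of genes were. Their log2 fold changes then ran from -1.96 to -1.64, with edgeR adjusted p from 0.021 to 0.0434. In that setting 2 old trained libraries remained, and their spread was assumed to be like that of the other groups. Libraries were left out by their Ttr level, and the same 3 were the lowest for every member. Leaving them out narrows the spread of all 6, so these calls are a description. With 1 surrogate variable, an estimate of variation shared by many genes, edgeR called 0 members, and 4, all but Ttr and Kl, had an unadjusted p below 0.05. That fit called 0.02% of all genes lower, so the count of 0 is not particular to the members. The log2 fold changes were then -2.72 to -1.91 with standard errors from 0.56 to 1.80.

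In young rats Igfbp2 and Igf2 fell with training, and the other 4 members did not pass. Called lower were 10.3% of all genes. Mean levels of Igfbp2 were 125.7 ± 29.9 CPM (SD, n = 4) without training and 54.4 ± 26.4 CPM (SD, n = 4) with it (log2 fold change -1.21, SE 0.35, edgeR adjusted p = 0.03). Those of Igf2 were 129.8 ± 26.9 CPM (SD, n = 4) and 46.8 ± 26.99 CPM (SD, n = 4) (log2 fold change -1.47, SE 0.47, edgeR adjusted p = 0.0449). The values that did not pass were -1.55 (SE 0.74) for Kl, -1.48 (SE 0.59) for Folr1, -1.36 (SE 0.52) for Aqp1 and -1.44 (SE 1.16) for Ttr, with edgeR adjusted p from 0.0831 to 0.403. The median of the 6 was -1.45, and that of all genes was -0.02. Igf2, Igfbp2, Folr1 and Kl had every trained library below every sedentary library, as did 12.5% of all genes tested.

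The young calls rested on single libraries. The count was 0 without young trained replicates 1 or 3 or young sedentary replicates 2, 3 or 4. It was 1, Igfbp2, without young trained replicate 4, young sedentary replicate 1 or old trained replicates 1 or 2, and it was 3 without young trained replicate 2. Over the 16 fits that each left out 1 library, 5.70% to 11.2% of all genes were called lower. Without the 3 libraries of lowest Ttr the count was 1, Folr1, where 5.23% of genes were called lower. The log2 fold changes there ran from -1.14 to -0.93. Those libraries were the lowest for every member, so that count is a description. With 1 surrogate variable edgeR's count was 0, where 6.57% of genes were called lower. It was also 0 with no filter on low counts (5.87% of genes) and in a fit to the 8 young libraries alone (10.8% of genes), while limma voom called 5 members and 16.3% of genes. With the surrogate variable 3 members, Igf2, Igfbp2 and Aqp1, had an unadjusted p below 0.05, and with no filter 4 did.

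Averaged over age, Kl, Igf2, Igfbp2, Folr1 and Aqp1 were called lower in trained rats, against 18% of all genes. Their decreases ran from 3.04-fold for Igfbp2 (log2 fold change -1.60, SE 0.25, edgeR adjusted p = 0.000297) to 4.40-fold for Kl (log2 fold change -2.14, SE 0.55, edgeR adjusted p = 0.00801). Ttr stood at -2.12 (SE 0.84, edgeR adjusted p = 0.0637). It was called by the DESeq2 Wald test, by limma voom and by edgeR without old trained replicate 3, each of which called all 6 members, against 17.8%, 20.9% and 16.1% of genes called lower. Without the 3 libraries of lowest Ttr all 6 were again called, where 12.4% of genes were called lower, and the log2 fold changes ran from -1.50 to -1.28. Those 3 libraries were left out by their Ttr level and were the lowest for every member, so these calls are a description. With 1 surrogate variable edgeR called 0, although the unadjusted p was below 0.05 for 5, all but Ttr. That fit called 1.1% of genes lower, with members' log2 fold changes from -2.10 to -1.54 and standard errors from 0.38 to 1.25.

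Ttr had the largest standard error of all members in each training comparison, and it spread widely within the trained groups. edgeR compares mean levels, to which a library near the bottom of its range adds little. On the log2 CPM scale, where such a library weighs fully, Ttr averaged 12.06 in young sedentary and 9.41 in young trained rats, a difference of -2.65 (exact permutation p = 0.0571, adjusted p = 0.0571 over 3 tests, 2-sided). In old rats it averaged 11.71 and 7.09, a difference of -4.62 (exact permutation p = 0.0286, adjusted p = 0.0429), and no smaller p is possible with 4 libraries a group. With libraries permuted within each age, the difference averaged over age was -3.63 (exact permutation p = 0.000816, adjusted p = 0.00245). With the 3 libraries of lowest Ttr left out, the differences were -1.05 in young rats (exact permutation p = 0.0857, adjusted p = 0.0857), -1.86 in old rats (exact permutation p = 0.0667, the smallest possible there, adjusted p = 0.0857) and -1.45 averaged over age (exact permutation p = 0.00381, adjusted p = 0.0114). All these permutation tests were chosen after the values were seen. Those without the 3 libraries test the same Ttr values by which the libraries were left out, so they are a description.

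For age, no member was called in sedentary rats, and fold changes were larger in trained rats without passing in edgeR. In sedentary rats edgeR called 0 of 6 members and 1.51% of genes, the DESeq2 Wald test 0 members and 6.05% of genes, and limma voom 0 members and 2.69% of genes. By edgeR, 0 had an unadjusted edgeR p below 0.05. The log2 fold changes, old minus young, ran from -0.60 (SE 0.46) for Igf2 to -0.34 (SE 1.14) for Ttr. The median of the 6 was -0.39. Old and young sedentary ranges overlapped for each member. With the 3 trained libraries of lowest Ttr out of the fit, edgeR again called 0 members, and 0.398% of genes. Ttr then stood at -0.34 with an SE of 0.36. The fit shares an estimate of spread per gene over all groups, so trained libraries enter the SE of this comparison.

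In trained rats edgeR called 0 of 6 members for age, where 4.98% of genes were called, although the unadjusted p was below 0.05 for 4, Igf2, Igfbp2, Folr1 and Aqp1. Log2 fold changes ran from -1.71 (SE 1.17) for Ttr to -1.16 (SE 0.36) for Igfbp2, whose edgeR adjusted p was 0.0775, with a median of -1.56 for the 6. The DESeq2 Wald test called 1 member, Igfbp2, and 8.79% of genes, and limma voom called 0 members and 8.55% of genes. Without young trained replicate 1, the library of lowest Kl, edgeR called 2, Igfbp2 and Aqp1, and 2.26% of genes. Without all 3 libraries of lowest Ttr it called 0 members and 0.163% of genes, with log2 fold changes from -1.50 to -1.07 and an unadjusted p below 0.05 for all 6. Averaged over training, edgeR called 0 members, where 10.5% of genes were called, with the same 4 below 0.05 unadjusted. The DESeq2 Wald test called 2, Igf2 and Igfbp2, and 13.6% of genes, and limma voom called 0 members and 11.7% of genes. Without young trained replicate 1 edgeR called 3, Igf2, Igfbp2 and Aqp1, and 8.2% of genes. Without old trained replicate 3 it called 1, Igf2, and 7.1% of genes. Without the 3 libraries of lowest Ttr edgeR called 0 members and 2.74% of genes. Log2 fold changes there ran from -1.01 to -0.71, with an unadjusted edgeR p below 0.05 for all 6. Those 3 libraries were the lowest for every member. Leaving them out narrows the spread of all 6, so the p-values of both fits without them are a description.

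The interaction of age and training asked whether the training difference itself differed between ages, and edgeR called 0 of 6 members and 0% of all genes. The DESeq2 Wald test called 0 members and 0.311% of genes, limma voom called 0 of both, and 0 members had an unadjusted edgeR p below 0.05. The interaction term, old minus young, ran from -1.37 (SE 1.61) for Ttr to -0.80 (SE 0.49) for Igfbp2 on the log2 scale, and standard errors of this size leave room for large as well as small differences between ages. The term ran, without the 3 libraries of lowest Ttr, from -0.99 to -0.67, with 0 members and 0% of genes called by edgeR and 0 members below 0.05 unadjusted. The comparisons by age and by training share libraries, so their values are not independent of each other.

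**Figure D2:**
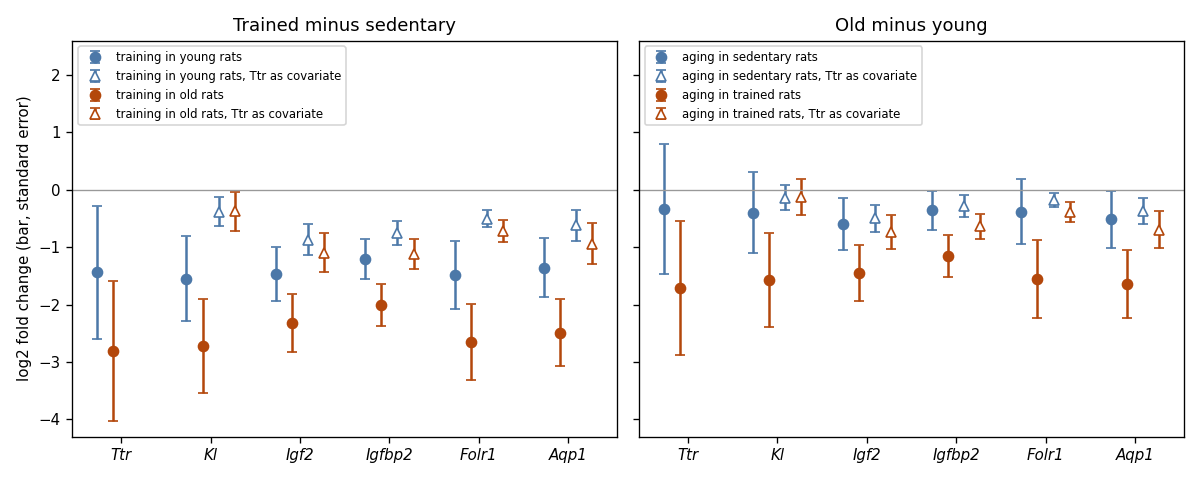
Log2 fold changes of the 6 genes for training (left, trained minus sedentary) and age (right, old minus young), with standard errors, without (circles) and with (open triangles) log2 CPM of Ttr as a covariate. The circles for training in old rats lie between -2.81 and -2.004, and the training triangles of the other 5 genes lie between -1.12 and -0.38.

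The members rose and fell together from library to library. The 3 libraries of lowest Ttr form a cluster of their own, so no correlation over all 16 libraries is given. In the 8 sedentary libraries, where training plays no part, all 15 pairs of members were positively correlated in log2 CPM. These libraries join young and old rats and were permuted together, so any difference between ages enters r and p. Pearson r ran from 0.774 (Ttr with Igf2) to 0.972 (Folr1 with Aqp1), with a median of 0.916. Exact permutation p ran from 0.000149 to 0.0277 (n = 8), and from 0.00124 to 0.0277 after adjustment over the 15 pairs. Spearman rho ran from 0.667 to 0.952, and 14 of the 15 pairs passed. Ttr with Kl did not (rho = 0.667, exact permutation p = 0.0831, adjusted p = 0.0831, n = 8). Without the 2 libraries farthest from the median of the first gene, r ran from 0.514, again Ttr with Kl, to 0.969. By r with Ttr in these 8 libraries, Kl ranked 316 and Igf2 322 among 15034 other genes. Correlations of this size with Ttr were thus not particular to the members, and the share of all gene pairs that pass was not computed.

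Over the 13 libraries outside the low cluster, a set chosen after the values were seen, Pearson r ran from 0.944 (Ttr with Igf2) to 0.994 (Igfbp2 with Folr1). Each permutation p was 1e-05, the smallest that 100000 draws can give, before and after adjustment over 15 pairs. Spearman rho ran from 0.907 to 0.984, with adjusted permutation p of at most 5e-05. Without the 2 farthest libraries r ran from 0.883 to 0.987. Libraries were permuted together across the groups, so r, rho and p all include the difference between trained and sedentary rats. The share of all gene pairs that pass was not computed here either. The 5 trained libraries among the 13 are too few for a value of their own.

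**Figure D3:**
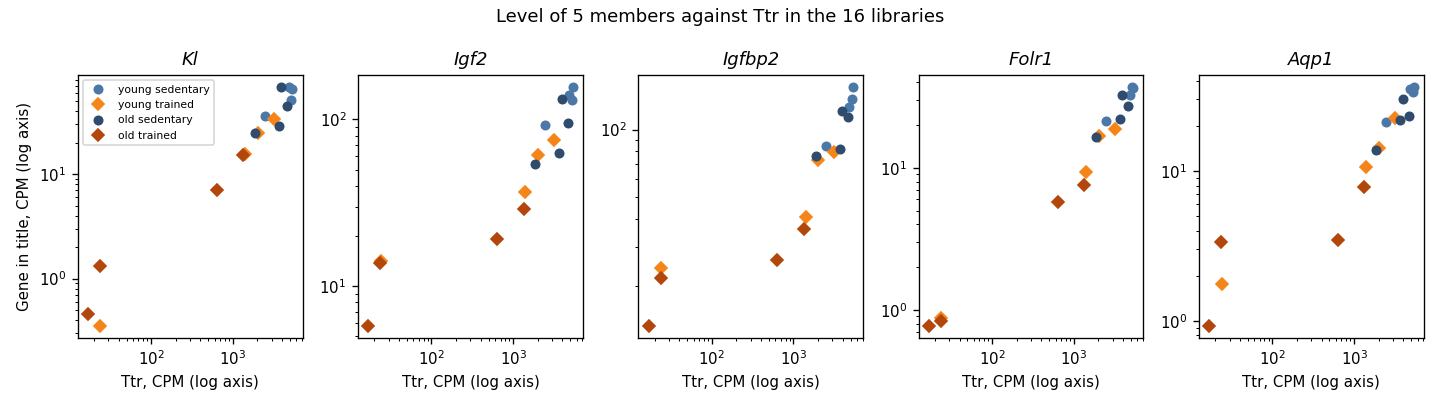
CPM of the other 5 genes against CPM of Ttr in the 16 libraries (both axes log), coloured by group. The 13 libraries at 635 CPM of Ttr or more rise together in each panel, and the 3 at 16.9 to 23.96 CPM lie apart at the lower left.

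Outside the low cluster, trained and sedentary libraries had similar proportions of each gene to Ttr. For every 1000 Ttr counts the 8 sedentary libraries had 7.78 to 17.5 Kl counts (median 12.7). The 5 other trained libraries had 10.8 to 12.3 (median 11.2). The sedentary range of Igf2 was 17.0 to 37.5 (median 28.8), and the trained range was 21.7 to 30.5 (median 26.0). Within the sedentary libraries these 2 proportions thus spread about as widely as Ttr itself, which ran from 1868 to 5348 CPM there. Igfbp2 ran from 22.3 to 40.7 (median 27.7) and from 25.3 to 41.2 (median 29.1). Folr1 ran from 5.85 to 8.80 (median 7.01) and from 5.63 to 9.03 (median 6.62). For Aqp1 the ranges were 4.98 to 8.51 (median 7.07) and 5.47 to 7.57 (median 7.13). In each case the range of the 5 trained libraries overlapped that of the sedentary ones. As a share of the sedentary median, the medians of those 5 libraries were 32.8% for Ttr, 32.5% for Kl, 32.5% for Igf2, 34.9% for Igfbp2, 31.1% for Folr1 and 40.0% for Aqp1. These medians lay between 31.1% and 40.0% for all 6 genes.

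In the 3 libraries of lowest Ttr the proportions differed from gene to gene. Ttr had a median of 0.555% of its sedentary level and Kl 0.962%. Folr1 had 2.80%, with 7 to 10 counts per library, and Aqp1 6.60%, with 12 to 28 counts. Igf2 kept 12.4% and Igfbp2 18.6%. Igfbp2 counts per 1000 Ttr counts were 790 to 1004 in these libraries, and those of Igf2 were 343 to 590. Ranges overlapped between genes, since Aqp1 ran from 3.48% to 12.6% and Igf2 from 5.14% to 12.6%, whereas Igfbp2 ran from 11.4% to 20.5% and Ttr did not exceed 0.559%. These libraries were picked on their Ttr level, so the position of Ttr is a description with no test.

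**Figure D4:**
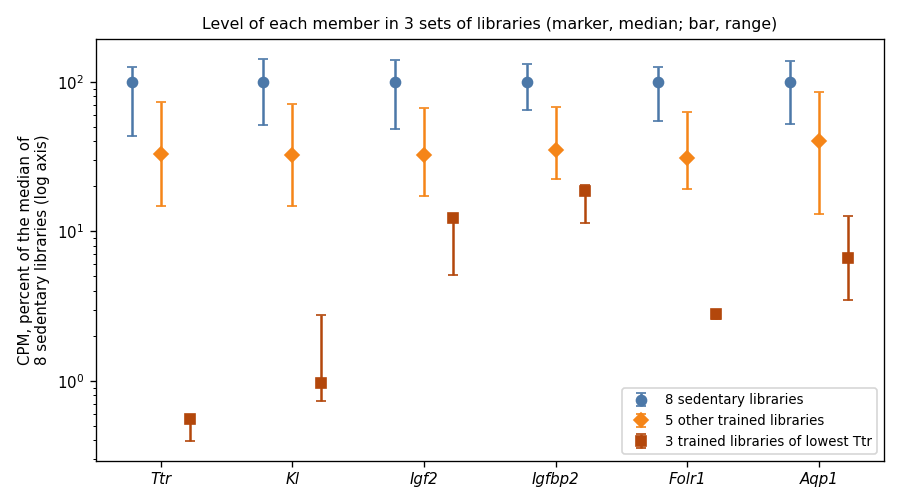
CPM of each gene as a percent of its median in the 8 sedentary libraries (log axis), in 3 sets of libraries, with the median as a marker and the range as a bar. The 5 other trained libraries have medians of 31.1% to 40.0% for all 6 genes, while the 3 libraries of lowest Ttr run from 0.555% for Ttr to 18.6% for Igfbp2.

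With log2 CPM of Ttr as a covariate, the training differences of the other 5 members shrank. In young rats they ran from -0.87 to -0.38, and Igfbp2 and Folr1 were called, where 7.26% of genes were called lower. In old rats they ran from -1.12 to -0.38, and the same 2 members were called, against 4.52% of genes. Averaged over age Igf2, Igfbp2, Folr1 and Aqp1 were called, against 10.1% of genes. Kl stood at -0.38 (SE 0.24, edgeR adjusted p = 0.286). With the covariate and without the 3 low libraries, 0 of 5 members were called in any of these 3 comparisons, where edgeR called 0.607% (young), 0% (old) and 0.157% (averaged) of genes lower. Averaged over age the members' log2 fold changes then ran from -0.53 to -0.31, and Igfbp2 and Folr1 had an unadjusted p below 0.05. The same 2 did in old rats, and Folr1 alone did in young rats. Without the 3 libraries Ttr itself was called lower in trained rats (-1.41, SE 0.31, averaged over age, edgeR adjusted p = 0.00828). The 3 were left out by their Ttr level, which narrowed its spread, so that call is a description. With them the change was -2.12 (SE 0.84). Ttr was lower on average in trained rats either way, so the covariate and the training groups overlap. What each contributes cannot be told apart.

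By likeness to Ttr, the other members stood near the top of the whole table. Ranked by Pearson r of log2 CPM over the 16 libraries among 15034 other genes, Folr1 was number 9, Kl 11, Aqp1 21, Igf2 33 and Igfbp2 40. When the 3 libraries of lowest Ttr were left out, the ranks were 6 for Aqp1, 11 for Folr1, 14 for Igfbp2, 20 for Kl and 26 for Igf2. Within the 8 sedentary libraries the ranks were 27 for Folr1, 52 for Aqp1, 76 for Igfbp2, 316 for Kl and 322 for Igf2. Of the non-members whose log2 CPM averaged 1 or more, ENSRNOG00000054495 and ENSRNOG00000005770 were most like Ttr over the 16 libraries. Their r with Ttr was 0.971 and 0.982 without the 3 low libraries, and 0.917 and 0.932 within the 8 sedentary ones. ENSRNOG00000005770 ran from 20.7 to 58.6 CPM in sedentary libraries, and its lowest value in young and in old trained libraries was 0.263 and 0.231 CPM. Least like Ttr was ENSRNOG00000022623 (r of -0.837 without the 3 low libraries), at 18.2 to 21.4 CPM in sedentary and 21.5 to 28.3 CPM in trained libraries. ENSRNOG00000027436 came next, with r of -0.456 without the 3 low libraries and 0.163 within the 8 sedentary ones. The files do not pair these IDs with names.

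In bulk tissue, fewer choroid plexus cells and less RNA per cell cannot be told apart. The labels do not record how much choroid plexus each dissected hippocampus held, and its part in the training differences was not tested. Sources used here do not give the lane or day of dissection of each library, so a part played by either was not tested.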

How the data were processed

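Gene counts were analysed for 16 rat hippocampus libraries in 4 groups of 4, grouped by their titles. The authors deposited raw counts per Ensembl gene ID, whole numbers with no normalization. Per the submitters' processing notes, the genome build was Rnor_6.0 and the tools were TopHat2 2.1.1 and HTSeq, with FastQC, Trimmomatic, SAMtools and DESeq2 also listed. Whether strand was used in counting is not stated there, so reads of overlapping and antisense genes cannot be told apart. The labels speak of 4 rats a group, and their titles number the libraries as biological replicates. No 2 libraries of a group agreed within sampling noise (lowest chi-square per degree of freedom 4.65).

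Counts were filtered with edgeR 4.0.16 filterByExpr by group, scaled by TMM and fitted with glmQLFit (robust) in R 4.3.3, 1 mean per group over all 16 libraries, with 12 residual degrees of freedom. Contrasts were tested 2-sided with glmQLFTest. Benjamini-Hochberg adjustment ran over all 15035 genes tested, with the call at an adjusted p under 0.05. The standard error is the size of the log2 fold change divided by the square root of F. CPM uses TMM-scaled totals of the tested genes. Correlations, on log2 CPM (prior count 2), were tested by permutation, exactly for 8 libraries and with 100000 draws otherwise. Scripts were tested on simulated data. Alternatives used DESeq2 1.42.0, limma 3.58.1 voom and sva 3.50.0.

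The members, the motifs and the tests were chosen with earlier results of these data known. Named beside the members were the 2 genes most and the 2 least like Ttr. Marker and pathway lists had been set down by symbol, but the reference gene table used here carries no Ensembl IDs, so they were not analysed here. The planned correlation over all 16 libraries was replaced by those over 8 and 13, because 3 libraries form a separate cluster.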

Additional observations from a re-analysis of the deposited data

Results flagged for a closer look

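Of 24 sets of 4 libraries examined, 1 per gene and group on the log2 CPM scale, 3 had a library far from the rest, where chance marks about 5%, and the sets share libraries. Ttr in young trained replicate 1 stood at 4.59 log2 CPM, with the other 3 libraries of the group between 10.46 and 11.62. Ttr in young sedentary replicate 1 stood at 11.28, with the others between 12.24 and 12.39. Aqp1 in young sedentary replicate 1 stood at 4.41, with the others between 5.09 and 5.20. In old trained rats the low Ttr values of replicates 1 and 4 lie together, so neither has a gap to its nearest neighbour.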

How the results depend on the processing

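Counts of members called that moved by over 1.5 times were as follows. For training in young rats, 2 in the fit reported, the count was 5 with limma voom, 4 with the replicate block (Folr1 and Aqp1 joining at edgeR adjusted p = 0.0342 and 0.0348), 1 without the 3 trained libraries of lowest Ttr, and 0 with no filter, with 1 surrogate variable, with the 8 young libraries alone, and with Ttr as a covariate without those 3 libraries. For training in old rats, 5 as reported, it was 2 of 5 with Ttr as a covariate and 0 with 1 surrogate variable or with the covariate without the 3 libraries. Averaged over age, 5 as reported, it was 0 in the latter 2 settings. A smaller move was that to 6 with the replicate block, Ttr joining at edgeR adjusted p = 0.0321. That fit called 5266 of 15035 genes, 2458 of them higher in trained rats. For age in trained rats, 0 as reported, it was 1 with the DESeq2 Wald test and 1 with the replicate block, and averaged over training it was 2 with each. Of 15035 genes the replicate block called 976 for age in trained rats and 1797 for age averaged over training. For training in young rats it called 2835 genes, 1078 of them higher in trained rats. Leaving out 1 library gave 0 to 3 members for training in young rats, where 5.70% to 11.2% of genes were called lower. It gave 4 to 5 in old rats, where 8.98% to 15.3% of genes were, and 5 to 6 averaged over age. For age it gave 0 to 0 in sedentary rats, 0 to 2 in trained rats and 0 to 3 averaged, and 0 to 0 for the interaction. The range of the share of all genes called is not given for training averaged over age, for age or for the interaction. Pairs of members correlated numbered 15 to 15 with 1 library left out, in the test planned over all 16 libraries. Its r values are not given because the libraries form separate clusters. Leaving out 1 library keeps most of the low cluster, so this count cannot show whether the pairs depend on that cluster. Of 1150 recomputed fold changes and correlations named singly, 1065 were labelled the same, 55 weaker and 29 stronger, and 1 reversed. A value labelled the same could still change in size. For age averaged over training, Folr1 moved from -0.97 to -0.28 with Ttr as a covariate and was labelled the same. The reversed one was the interaction of Kl with Ttr as a covariate, at 0.0055 on the log2 scale. The cause of these moves was not tested. Replicate numbers were not taken as pairing the rats, since no label says so and not all same-numbered libraries deviated together (r from -0.245 to 0.477, median 0.097, against -0.023 for other pairs). As a hint from the data, 9 of 16 libraries matched best with their own number, where 4 would if numbers carried no information. Kl rested on 4 to 11 counts in the lowest libraries, which limits its precision there.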
